A study of Mus musculus with 6 samples.

Results

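The data cover the transcripts of 9 genes of the JAK and STAT families in splenic follicular helper T (Tfh) cells, chosen by name as *Stat2*, *Stat3*, *Stat4*, *Stat5a*, *Stat5b*, *Stat6*, *Jak1*, *Jak3* and *Tyk2* and not by a cutoff on their values. Earlier results of these data were known when these genes were chosen. They are 9 of the 53379 genes listed in the count tables. The CTL group held 3 female mice, and the labels do not say which of the study's control genotypes each carried (*Prdm1* fl/fl without CD11c-CRE, or *Prdm1* +/+ with CD11c-CRE). The *Prdm1*-CKO group held 3 female mice that carried *Prdm1* fl/fl with CD11c-CRE, and the labels, which use the protein name Blimp1 for *Prdm1*, call them Blimp1 KO in the titles and Blimp1 KD in the genotype field. Mice of both groups were 6 to 8 weeks old when immunized with NP-CGG in CFA, and spleens were taken on day 7. The CD11c promoter drives CRE in dendritic cells (DCs), so the Tfh cells were not the intended target of the deletion. *Prdm1* itself was at 27.5 to 30.0 CPM in CTL and 30.2 to 30.9 CPM in *Prdm1*-CKO Tfh. These groups did not overlap, where 8.42% of all genes tested had such groups. The log2 fold change of *Prdm1* was 0.089 (standard error 0.19, adjusted p = 0.996 from edgeR). Counts per gene cannot show whether part of the gene was deleted. Live TCRβ+CD4+CXCR5+PD1+ cells were sorted, and each mouse gave 1 library. The labels number the mice, and p values measure the spread between them.

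Many cytokine receptors have no kinase of their own. JAK tyrosine kinases sit on the receptor tails, become active when cytokine joins the receptor chains, and phosphorylate STAT proteins, which pair, enter the nucleus and bind DNA. In Tfh cells STAT3 is known to carry the signals of IL-6 and IL-21 toward BCL6, whereas STAT5 carries the IL-2 signal that opposes the Tfh program. Phosphorylation sets the activity of these proteins, and transcript levels do not measure it.

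Total counts lay between 7147601 and 16973392 per mouse, and every member had at least 301 counts in every mouse. Levels are CPM, counts scaled to library size with edgeR's TMM factors, and 3 counts, the floor used here, corresponded to 0.169 to 0.444 CPM, which covers counting error only. CTL replicate 2 stood apart from the other mice on the first principal component, at 134.6 against -29.1 to -24.0. CTL replicate 3 had the fewest counts and the largest share on the ribosomal RNA gene CT010467.1, at 14.7%, against 5.14% to 10.2% in the other mice. The T cell and Tfh marker genes *Cd3e*, *Cd4*, *Cxcr5*, *Pdcd1*, *Icos*, *Bcl6*, *Sh2d1a* and *Il21* were present in all 6 libraries. *Foxp3*, which marks regulatory T cells, was at 134 to 182 CPM, and the sort did not exclude these cells. In bulk libraries a change in the number of cells of a type and a change in RNA per cell cannot be told apart.

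*Stat5b*, *Stat5a* and *Stat3* are neighbors on chromosome 11 of GRCm38. *Stat5b* (ENSMUSG00000020919.11) runs on the minus strand as chr11:100780731-100850724, *Stat5a* (ENSMUSG00000004043.14) on the plus strand as chr11:100859351-100885169 and *Stat3* (ENSMUSG00000004040.16) on the minus strand as chr11:100885098-100939540. The starts of *Stat5b* and *Stat5a* are 8626 bases apart, and the 3′ ends of *Stat5a* and *Stat3* overlap by 72 bases on opposite strands. The coding sequences of *Stat5a* and *Stat5b* were identical at 90.8% of 2291 aligned bases, whereas the other 14 pairs of STAT genes were identical at 58.2% to 65.3%. The longest identical run was 324 bases. It is shown because reads of 25 bases from within it carry no letter that tells the paralogs apart. Its start is printed within 150 coding bases of both genes, of which the 1 that differs is in capitals and stands just before the run. The stretch lies in exons 6 and 7 of both genes, at chr11:100874003-100874133 and chr11:100874339-100874357 in *Stat5a* and at chr11:100798591-100798721 and chr11:100798367-100798385 in *Stat5b*. The letters come from the GENCODE M21 transcripts.
Stat5a, coding bases 551 to 700: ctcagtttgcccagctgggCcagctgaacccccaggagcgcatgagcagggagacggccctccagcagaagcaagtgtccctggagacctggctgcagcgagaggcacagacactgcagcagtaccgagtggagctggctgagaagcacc
Stat5b, coding bases 551 to 700: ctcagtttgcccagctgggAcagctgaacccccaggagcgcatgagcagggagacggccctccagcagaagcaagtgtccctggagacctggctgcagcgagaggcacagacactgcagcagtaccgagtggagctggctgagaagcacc
The 90 coding bases aligned without a gap with the most differences, 28, are shown as the contrast. They lie near the start of the coding sequence, in exons 2 and 3 of both genes (chr11:100861425-100861465 and chr11:100861721-100861769 in *Stat5a*, chr11:100808396-100808436 and chr11:100804978-100805026 in *Stat5b*), and capitals mark the bases that differ.
Stat5a, coding bases 88 to 177: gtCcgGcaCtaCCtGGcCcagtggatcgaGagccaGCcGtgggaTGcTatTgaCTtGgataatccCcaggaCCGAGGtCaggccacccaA
Stat5b, coding bases 88 to 177: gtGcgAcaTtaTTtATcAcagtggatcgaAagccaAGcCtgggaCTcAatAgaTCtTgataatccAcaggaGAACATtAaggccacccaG
Over all protein-coding transcripts, 24.0% of the 25-base words of *Stat5a* and 17.4% of those of *Stat5b* also occurred in another gene, and 942 words were common to the 2. In the coding sequence, 20 identical runs of at least 25 bases covered 59.2% of *Stat5a*.

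**Figure D1:**
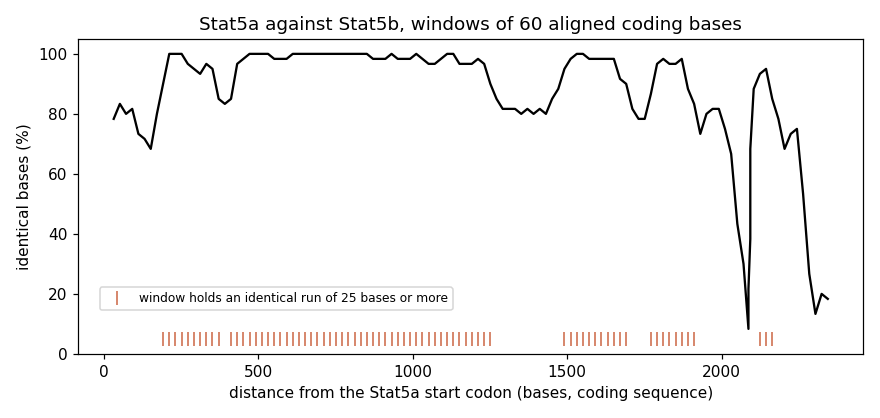
Percent of identical bases between *Stat5a* and *Stat5b* in windows of 60 aligned coding bases (y axis) against the distance from the *Stat5a* start codon in bases (x axis), gaps counted as differences. Orange ticks mark windows that hold an identical run of at least 25 bases, which are densest around the 324-base run, and identity falls toward the 3′ end of the coding sequence.

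The other members share little sequence, with 2 exceptions that concern overlapping annotation. *Stat4* (ENSMUSG00000062939.11, chr1:51987148-52107189, plus strand) had 30.1% of its words in Gm28177, a transcript annotated on the same strand that had 1 to 3 counts in each mouse. *Jak3* (ENSMUSG00000031805.17, chr8:71676296-71690575, plus strand) shared 8.56% with *Insl3*, at 11 to 34 counts. Fewer than 3% of the words were shared for *Stat3* (2.12%), *Stat6* (0.663%), *Tyk2* (0.144%) and *Stat2* (0.0236%), and *Jak1* shared 0 of 4961. *Stat6* (ENSMUSG00000002147.18, chr10:127642986-127660957) and *Stat2* (ENSMUSG00000040033.16, chr10:128270559-128292849) lie on the plus strand of chromosome 10. *Jak1* (ENSMUSG00000028530.14, chr4:101152367-101265282) and *Tyk2* (ENSMUSG00000032175.11, chr9:21104068-21131243) lie on minus strands. How reads that fit more than 1 gene were counted is not given in the sources used here, so counts of *Stat5a*, *Stat5b*, *Stat4* and *Jak3* are less certain than those of *Jak1* and *Stat2*.

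*Jak1* had the most counts of the 9 genes. It encodes the kinase used by common γ chain, gp130 and interferon receptors. Its level, here and for the genes that follow in the order of replicates 1 to 3, was 991, 888 and 362 CPM in CTL and 841, 527 and 618 CPM in *Prdm1*-CKO mice. The groups overlapped, and CTL replicate 3 was the lowest of the 6 mice. The log2 fold change of *Prdm1*-CKO against CTL was -0.17 (standard error 0.35, 95% interval -0.98 to 0.63, adjusted p = 0.996 from edgeR). Without CTL replicate 3 it was -0.50 (adjusted p = 0.760 from edgeR), and without CTL replicate 1 it was 0.076.

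*Jak3*, the partner kinase of the common γ chain through which IL-2, IL-4, IL-7 and IL-21 signal, varied less. It was at 225, 228 and 192 CPM in CTL and at 260.0, 176 and 203 CPM in *Prdm1*-CKO mice. Both the highest and the lowest mouse were *Prdm1*-CKO, and the log2 fold change was -0.014 (standard error 0.18, 95% interval -0.42 to 0.40, adjusted p = 0.998 from edgeR). *Tyk2*, a kinase of IL-12, IL-23 and type I interferon receptors, was at 191, 130.3 and 87.7 CPM in CTL and 193, 135 and 152 CPM in *Prdm1*-CKO mice. CTL replicate 3 was again the lowest mouse. *Tyk2* had the largest log2 fold change of the members above 0, at 0.23 (standard error 0.28, 95% interval -0.42 to 0.87, adjusted p = 0.996 from edgeR), and without CTL replicate 3 this was -0.0017.

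*Stat3* encodes the factor whose phosphorylation was measured by the authors in naive T cells cultured with DCs. Its transcript was at 383, 359 and 295 CPM in CTL and 362, 257 and 311 CPM in *Prdm1*-CKO mice. The ranges overlapped over most of their length. Its log2 fold change was -0.16 (standard error 0.17, 95% interval -0.56 to 0.24, adjusted p = 0.996 from edgeR), so the interval runs from a fold of 0.680 to 1.18. It stayed below 0 with each mouse left out in turn, from -0.28 to -0.031. *Stat4*, which is activated by IL-12 and directs Th1 differentiation, was at 113, 130.2 and 163 CPM in CTL and 119, 114 and 123 CPM in *Prdm1*-CKO mice. CTL replicate 3, the lowest mouse for 5 other members, was the highest for *Stat4*. The *Stat4* log2 fold change of -0.19 was the most negative of the 9 (standard error 0.17, 95% interval -0.58 to 0.21, adjusted p = 0.996 from edgeR), and it was -0.025 without CTL replicate 3.

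*Stat5a* and *Stat5b*, the targets of IL-2 and IL-7 signaling, did not vary alike. *Stat5a* was at 112, 114 and 112 CPM in CTL and 109, 91.2 and 119 CPM in *Prdm1*-CKO mice, with a log2 fold change of -0.083 (standard error 0.16, 95% interval -0.44 to 0.28, adjusted p = 0.996 from edgeR). *Stat5b* was at 163, 151 and 87.9 CPM in CTL and 182, 119 and 119 CPM in *Prdm1*-CKO mice, with a log2 fold change of 0.063 (standard error 0.27, 95% interval -0.56 to 0.68, adjusted p = 0.996 from edgeR). *Stat5a* spanned 1.30-fold from its lowest to its highest mouse and *Stat5b* 2.07-fold.

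*Stat6*, which is activated by IL-4, was at 374, 352 and 216 CPM in CTL and 373, 269.7 and 351 CPM in *Prdm1*-CKO mice. The log2 fold change of this gene was 0.076 (standard error 0.23, 95% interval -0.45 to 0.60, adjusted p = 0.996 from edgeR). *Stat2*, which joins IRF9 in the response to type I interferon, was at 96.2, 106 and 44.5 CPM in CTL and 95.3, 56.9 and 78.0 CPM in *Prdm1*-CKO mice. The log2 fold change of this gene was -0.099 (standard error 0.33, 95% interval -0.86 to 0.66, adjusted p = 0.996 from edgeR). For both genes CTL replicate 3 was the lowest mouse.

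**Figure D2:**
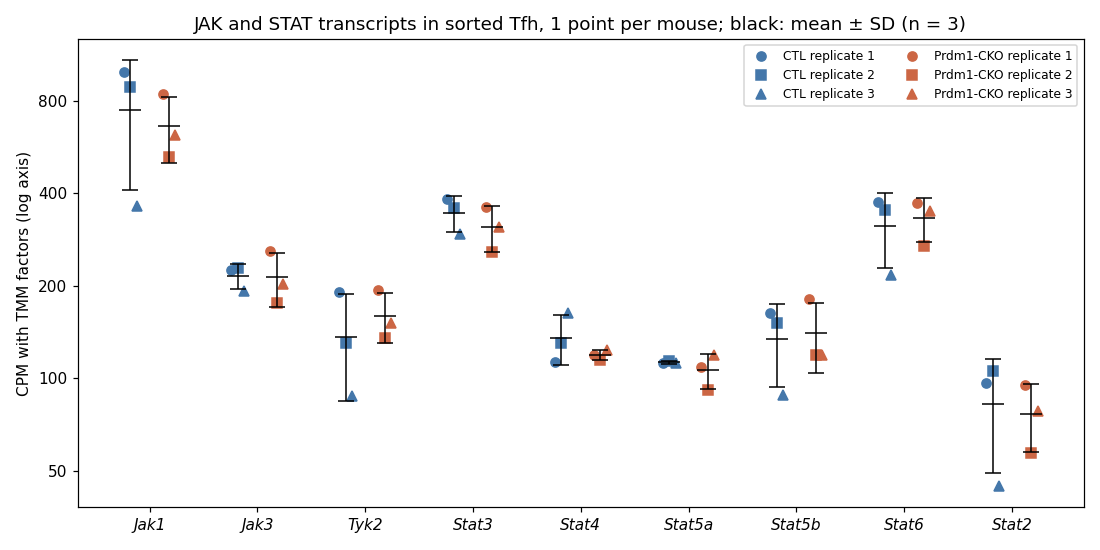
Level of each member in CPM (y axis, log scale) in every mouse, blue for CTL and orange for *Prdm1*-CKO with the replicate given by the symbol; black bars are the mean ± SD (n = 3). The points of the 2 groups overlap for all 9 genes, and CTL replicate 3 (blue triangle) is the lowest point for *Jak1*, *Tyk2*, *Stat5b*, *Stat6* and *Stat2*.

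Of the 9 members, 0 had an adjusted p under 0.05 in edgeR's quasi-likelihood test, where 0.00% of the 14555 genes tested did. DESeq2's Wald test likewise gave 0 members, against 0.0531% of the genes to which it gave an adjusted p. Before adjustment, 0 members had p under 0.05 by either tool, where edgeR gave 2.35% of all genes tested and DESeq2 2.62%. The smallest unadjusted p among the members in edgeR was 0.305, for *Stat4*. The log2 fold change was above 0 in 3 members and below 0 in 6, with a median of -0.083, whereas 51.1% of all genes tested lay above 0 with a median of 0.010. The groups overlapped in every member, where 8.42% of all genes tested had groups that did not overlap. The 95% intervals differed in width from gene to gene. The lowest bound was a fold of 0.508, for *Jak1*, and the highest 1.83, for *Tyk2*, whereas the interval of *Stat4* ran from 0.667 to 1.15 and that of *Stat5a* from 0.736 to 1.21. Leaving out CTL replicate 2 or CTL replicate 3 also gave 0 members with an adjusted p under 0.05.

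**Figure D3:**
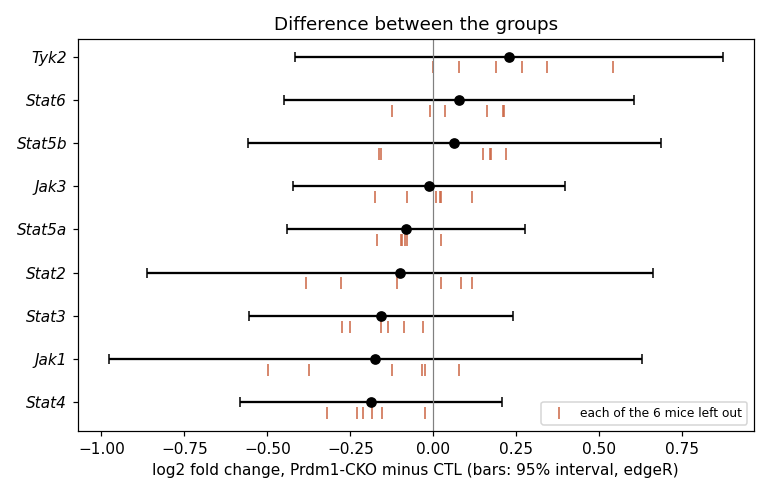
Log2 fold change of *Prdm1*-CKO against CTL (x axis) for each member, with its 95% interval derived from edgeR's F test as a bar. Orange ticks below each bar are the values with each of the 6 mice left out. Every interval spans 0, and the ticks of *Stat3* and *Stat4* alone all lie on one side of it.

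Levels of different genes were compared per kilobase of merged exons. In CTL mice *Jak1* was at 103 ± 46.7 CPM per kilobase (SD, n = 3), *Stat6* at 71.3 ± 19.4, *Jak3* at 40.2 ± 3.70, *Stat3* at 36.3 ± 4.77 and *Stat4* at 35.0 ± 6.59. *Stat5b* followed at 24.2 ± 7.26, *Tyk2* at 19.9 ± 7.59, *Stat5a* at 15.8 ± 0.14 and *Stat2* at 13.9 ± 5.55 CPM per kilobase (SD, n = 3 each). The *Prdm1*-CKO mice had the same order, from *Jak1* at 91.6 ± 22.3 and *Stat6* at 75.2 ± 12.4 to *Stat2* at 12.9 ± 3.24 CPM per kilobase (SD, n = 3). Neighbors in this order were compared within each of the 6 mice. The order came from the mean of the same mice, so the p values below do not test an order set beforehand. *Jak1* exceeded *Stat6* by 0.36 ± 0.27 on the log2 scale (SD, n = 6), *Stat6* exceeded *Jak3* by 0.86 ± 0.22, and *Jak3* exceeded *Stat3* by 0.22 ± 0.10, each in 6 of 6 mice (two-sided exact sign-flip permutation test, p = 0.0312, the smallest that 6 mice allow, and 0.0833 after adjustment over the 8 pairs). The other 5 neighboring pairs did not differ in the same direction in every mouse. *Stat3* and *Stat4* differed by 0.065 ± 0.32 on the log2 scale (SD, n = 6, exact permutation p = 0.594).

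The length assigned to a gene changed part of this order. With the longest coding transcript in place of merged exons, *Jak1* and *Stat6* remained the 2 highest and *Stat2* the lowest, but *Stat3* came before *Jak3* and *Stat5a* before *Stat5b*. Merged exons gave *Stat5a* 7133 bases and *Stat5b* 5539, whereas the longest coding transcripts had 3888 and 5213. *Stat5b* was above *Stat5a* in 6 of 6 mice by the first length, and *Stat5a* was above *Stat5b* in 4 of 6 by the second. *Jak3* was above *Stat3* in 6 of 6 mice by the first length, and *Stat3* was above *Jak3* in 4 of 6 by the second. The order by level of *Stat5a* and *Stat5b*, and that of *Jak3* and *Stat3*, is therefore not fixed by these data.

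**Figure D4:**
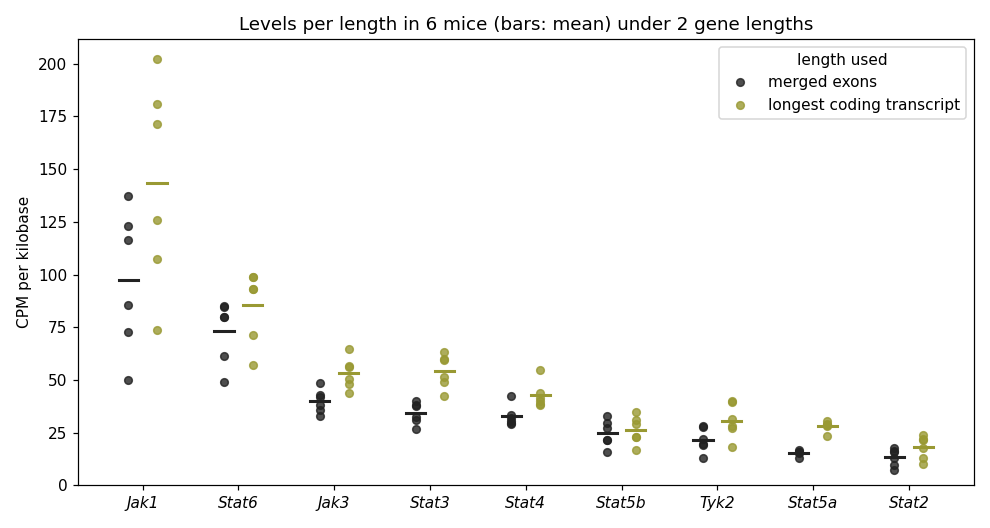
Level in CPM per kilobase (y axis) of each member in the 6 mice, with the mean as a bar, by merged exon length (black) and by the longest coding transcript (olive). *Jak1* and *Stat6* are highest by both lengths, and *Stat5a* lies below *Stat5b* by merged exons only.

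Of the summed level of the 6 STAT genes per kilobase, *Stat6* made up 35.8% ± 4.75 in CTL and 39.2% ± 1.47 in *Prdm1*-CKO mice (SD, n = 3 each). *Stat3* made up 18.5% ± 0.73 and 16.9% ± 0.43 (SD, n = 3 each). Differences between the groups in the share of a gene in its family were not tested. The STAT sum was 196 ± 30.5 CPM per kilobase in CTL and 192 ± 28.1 in *Prdm1*-CKO mice (SD, n = 3 each, two-sided exact permutation p = 1.0). *Jak1* made up 61.2% ± 9.07 of the 3 JAK genes in CTL and 59.0% ± 1.09 in *Prdm1*-CKO mice (SD, n = 3 each). The JAK sum was 163 ± 57.1 against 155 ± 34.8 CPM per kilobase (SD, n = 3 each, two-sided exact permutation p = 0.9).

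The ratio of *Stat5b* to *Stat5a*, taken per kilobase of merged exons so that library size cancels, was 1.87, 1.71 and 1.01 in CTL mice against 2.15, 1.69 and 1.28 in *Prdm1*-CKO mice. On the log2 scale the group means were 0.18 apart (exact permutation test, p = 0.7, where 3 mice against 3 allow no p under 0.1), with *Prdm1*-CKO higher. The difference was -0.097 without CTL replicate 3. Leaving out *Prdm1*-CKO replicate 1 gave -0.0070. Among the 18 ratios between paralogs of a family, the groups did not overlap in 1, that of *Stat3* to *Stat6*, singled out here after its values were seen. For the levels of single genes, 8.42% of all genes tested had groups that did not overlap. On the log2 scale the *Stat3* to *Stat6* ratio was -1.08, -1.09 and -0.66 in CTL and -1.16, -1.18 and -1.29 in *Prdm1*-CKO mice (two-sided exact permutation p = 0.1).

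Several members had their lowest level in the same mouse. CTL replicate 3 was the lowest of the 6 mice in 5 members, and in 20.3% of all genes tested. *Jak1* spanned 2.74-fold between mice, *Stat2* 2.37-fold, *Tyk2* 2.20-fold and *Stat5b* 2.07-fold. The SD of log2 CPM over the 6 mice was 0.55 for *Jak1*, above that of 93.1% of genes within 2-fold of its level, and 0.13 for *Stat5a*, above that of 12.6%. Ordered by the share of counts on CT010467.1, CTL replicate 3 at 14.7% had the least *Jak1*, and the mice at 5.70% and 5.14%, CTL replicate 1 and *Prdm1*-CKO replicate 1, had the most and the third most. The part of this ribosomal RNA share, or of depth, in these differences between mice was not tested. The genes nearest to *Jak1* over the 6 mice, among 4435 genes with a mean of at least 50 CPM, were *Morc3*, *Dync1li2* and *Cyld*, with root mean square differences in centered log2 CPM of 0.069, 0.076 and 0.079. Those nearest to *Stat3* were *Rbm14*, *Plekhg2* and *Nf2*, at 0.039, 0.043 and 0.046.

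**Figure D5:**
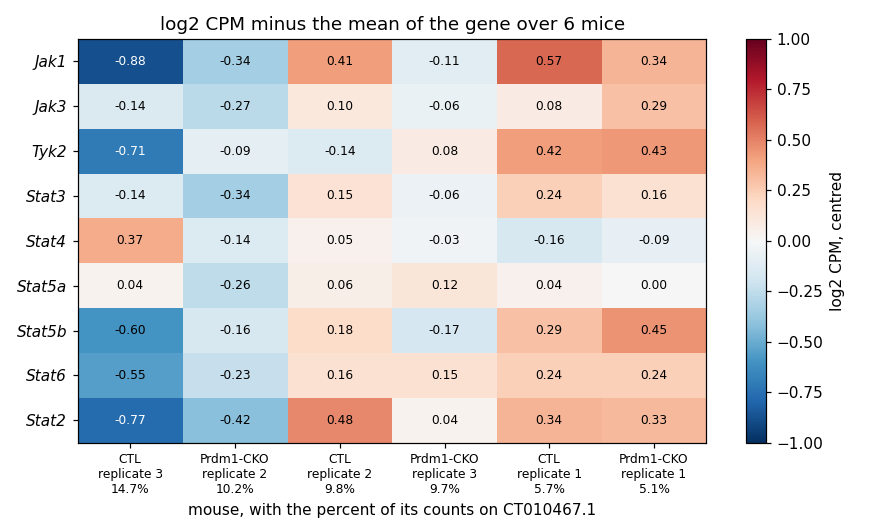
Log2 CPM of each member minus its mean over the 6 mice (color and number in each cell), with mice ordered by the percent of their counts on the ribosomal RNA gene CT010467.1, given under each column. CTL replicate 3, at 14.7%, has the lowest value of the row for 5 members and the highest for *Stat4*.

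Genes upstream and downstream of the members were taken from 3 lists, which cover receptors that signal through JAKs, brakes of the pathway, and genes known as STAT targets. Of 24 receptor genes 22 passed the expression filter, and of these 0 were called higher and 0 lower by edgeR (adjusted p under 0.05). Before adjustment edgeR and DESeq2 also gave 0 of these 22 with p under 0.05. Their median log2 fold change was -0.0095, beside 0.010 for all genes tested. *Il2rb*, a chain of the IL-2 and IL-15 receptors, was the most abundant at 496, 468 and 549.7 CPM in CTL and 498, 429.8 and 489 CPM in *Prdm1*-CKO mice. *Ifngr1*, the ligand-binding chain of the interferon γ receptor, had the smallest p of the list, at 454, 217 and 373 CPM in CTL and 486, 433 and 498 CPM in *Prdm1*-CKO mice (log2 fold change 0.44, standard error 0.25, adjusted p = 0.996 from edgeR). *Il7r* had a log2 fold change of -0.31 (standard error 0.21). *Osmr* had 0 counts in every mouse. *Il23r*, a chain of the IL-23 receptor, did not pass the filter of edgeR. It is singled out here after its values were seen, since its groups did not overlap. Of the genes tested by edgeR, which do not include *Il23r*, 8.42% had such groups. Each CTL mouse had 0 or 1 count, under the floor of 3 counts, and each *Prdm1*-CKO mouse had 10 to 22. DESeq2, which ran without that filter, gave it an unadjusted p of 0.0034 and an adjusted p of 0.666. Before adjustment, DESeq2 gave p under 0.05 to 2.62% of all genes. The authors reported higher *Il23r* in *Prdm1*-CKO Tfh by qPCR in a separate cohort, and higher IL-23R protein by flow cytometry.

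All 19 brake genes were tested, and 0 were called higher and 0 lower by edgeR, with 0 under 0.05 before adjustment in edgeR or DESeq2. Their median log2 fold change was 0.013. *Ptprc*, which encodes the phosphatase CD45, was at 2653 ± 551 CPM in CTL and 2191 ± 311 CPM in *Prdm1*-CKO mice (SD, n = 3 each). *Ptpn6*, which encodes the phosphatase SHP-1, was at 606 ± 72.1 and 623 ± 65.8 CPM (SD, n = 3 each). The log2 fold change of *Socs5* was 0.59 (standard error 0.36) and that of *Pias1* -0.29 (standard error 0.17), and edgeR's adjusted p was 0.996 for both. *Pias1* was the 1 gene of the 19 whose groups did not overlap, where 8.42% of all genes tested had such groups. It was at 129, 175 and 128 CPM in CTL and 121, 109 and 124 CPM in *Prdm1*-CKO mice.

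All 16 target genes were tested, and edgeR again called 0 higher and 0 lower, with 0 under 0.05 before adjustment in edgeR or DESeq2. Their median log2 fold change was 0.014. *Gata3*, a factor of Th2 cells that STAT6 is known to induce, had the smallest p, at 205, 256 and 266 CPM in CTL and 183, 203 and 190 CPM in *Prdm1*-CKO mice. It was the 1 gene of the 16 whose groups did not overlap, beside 8.42% of all genes tested, with a log2 fold change of -0.34 (standard error 0.15, unadjusted p = 0.055 and adjusted p = 0.996 from edgeR). *Irf9*, the partner of STAT2, was at 219 ± 16.0 CPM in CTL and 207 ± 22.2 CPM in *Prdm1*-CKO mice (SD, n = 3 each). *Bcl2* had a log2 fold change of -0.34 (standard error 0.23).

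JAK and STAT genes are active in most blood cells, and the markers of other cells in the sort are given beside them. The summed level of 10 B cell markers was 119 to 196 CPM in CTL and 167 to 254 CPM in *Prdm1*-CKO mice, and that of 10 macrophage markers was 549.5 to 1563 CPM and 1141 to 1577 CPM. The 8 T cell and Tfh markers summed to 2519 to 3349 CPM in CTL and 2421 to 2663 CPM in *Prdm1*-CKO mice. The 6 regulatory T cell markers summed to 928 to 1006 CPM in CTL and 813 to 918 CPM in *Prdm1*-CKO mice, without overlap. Each of these 6 genes alone had groups that overlapped, as did the sums of the other marker lists. Some single genes of the other lists did not overlap. *Cd4*, *Nkg7* and *Cd8a* were lower in every *Prdm1*-CKO mouse than in every CTL mouse. *Cd79b*, *Pax5*, *Cr2*, *Mzb1*, *Derl3*, *C1qc* and *Cd8b1* were higher in every *Prdm1*-CKO mouse. Of all genes tested, 8.42% had groups that did not overlap. The 6 dendritic cell markers summed to 55.3 to 114 and 83.7 to 124 CPM, with *Siglech* at 0 in 3 mice, the 6 CD8 and NK cell markers to 201 to 259 and 176 to 206 CPM, the 5 plasma cell markers to 261 to 415 and 400 to 677 CPM, and the 4 erythroid markers to 5.92 to 16.7 and 10.9 to 43.1 CPM. All of these markers but 1 of the dendritic cell and 1 of the erythroid list passed the expression filter, and of those that passed 0 had an adjusted p under 0.05 in edgeR. The part of these cells in the JAK and STAT levels was not tested.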

How the data were processed

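RNA of sorted splenic Tfh cells was made into Smart-seq2 libraries and sequenced as paired reads of 25 bases. The authors deposited raw counts per gene, 1 library per mouse, made with featureCounts on GRCm38. The submitters' processing notes name STAR 2.4.2a and DESeq2. Strandedness is not given in the sources used here, so reads of overlapping genes on opposite strands may not be separated.

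Symbols, lengths and sequences came from GENCODE M21 on GRCm38, which is later than the annotation used for counting. It held 53274 of 53379 identifiers, 50604 in the same version, all 9 members among them. Counts were tested with edgeR 4.0.16 in R 4.3.3 (TMM factors, filterByExpr, quasi-likelihood F test, Benjamini-Hochberg over 14555 genes), without a covariate. Both edgeR and DESeq2 1.42.0 were tested on simulated data in which 200 genes were changed 4-fold. At an adjusted p under 0.05, edgeR recovered 88% of these with 9 false calls, and DESeq2 96% with 53 false calls. Changes as small as those of the members were not simulated. Single values were compared by exact permutation over mice.

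The members and lists were chosen with earlier results of these data known. Named are the 9 members, and from each list the 2 most abundant genes and the 2 with the smallest p. The genes nearest to *Stat3* and *Jak1* and genes that overlap a member are named too. Alternatives were DESeq2's size factors and Wald test, dropping the filter, requiring 10 or more counts in each mouse, leaving out the most abundant gene, the replicate number as a block, another gene length, and each mouse left out. Other genes of the JAK and STAT families were not analysed here.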

Additional observations from a re-analysis of the deposited data

How the results depend on the processing

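Of the JAK and STAT genes, 0 had an adjusted p under 0.05 in any of 12 alternatives, and the lowest adjusted p was 0.706, for *Tyk2*. The genes of the receptor, brake and target lists also gave 0 in each. Over all genes, edgeR called 0 higher and 0 lower (adjusted p under 0.05), DESeq2's Wald test 7 higher and 2 lower, and edgeR without a filter 1 higher and 0 lower. Before adjustment, edgeR gave p under 0.05 for 135 higher and 207 lower genes, with 264 and 417 with DESeq2, 426 and 510 without a filter, and 58 to 580 and 107 to 617 with each mouse left out. The log2 fold changes of *Stat3* (-0.28 to -0.031) and *Stat4* (-0.32 to -0.025) stayed below 0 with each mouse left out. Those of *Stat2* (-0.38 to 0.12), *Stat5a* (-0.17 to 0.024), *Stat5b* (-0.16 to 0.22), *Stat6* (-0.12 to 0.21), *Jak1* (-0.50 to 0.076), *Jak3* (-0.18 to 0.12) and *Tyk2* (-0.0017 to 0.54) did not keep their sign, nor did the difference in the *Stat5b* to *Stat5a* ratio (-0.097 to 0.37). *Jak3* was at 0.011 without a filter, against -0.014 with it. Every other member also had a higher log2 fold change without the filter. In that setting the TMM factors were also computed from all genes with any count, and their part in the shift was not tested.

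The labels do not say whether same-numbered mice were paired. The deviations of same-numbered mice correlated at 0.158, 0.028 and 0.016. Their mean was 0.068, against -0.033 for other pairs between groups, and so few pairs cannot decide whether the mice were paired. With the replicate number as a block, unadjusted p under 0.05 was found for 175 higher and 196 lower genes, adjusted p under 0.05 for 0 members and 0 genes, with log2 fold changes of -0.078 for *Jak1* and 0.28 for *Tyk2*. The ratio difference was 0.18 with and without the block. In balanced groups the mean difference between same-numbered mice always equals the difference of the group means. The equal values therefore cannot show whether the result depends on the block. The exact permutation p of the ratio difference was 0.5 with the block and 0.7 without it.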
